A study of Mus musculus with 12 samples.

Results

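The average effect of DAPT on hippocampal cultures was read from 12 RNA sequencing libraries, which are all the libraries of the experiment. The 6 libraries given DAPT (3 DAPT, 3 DAPT + sErbB4) were set against the 6 without it (3 Vehicle, 3 sErbB4), with the sErbB4 state as a covariate. All cultures were neuronal cultures from the hippocampus of WT mice at P4. DAPT was given at 20 µM and soluble ErbB4 (sErbB4) at 20 nM, and where both were given DAPT came first. The study took RNA a few hours after sErbB4 was added, so sErbB4 was present for less time than DAPT. The study describes 3 platings per condition, from several mice of several litters, and the sources used here do not say which mice a library came from. The libraries hold RNA of more cells than neurons. The sources differ on how long DAPT was present before sErbB4 (overnight or 24 h), and the values do not settle it. Setting 6 libraries against 6 narrows the error of each estimate. The account below is mostly of changes under 1.5-fold, many of which were also called with 3 libraries against 3.

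DAPT is a small molecule that inhibits γ-secretase, the protease complex that cuts many membrane proteins within the membrane. Its substrates include Notch receptors, whose freed intracellular domains join the DNA-binding protein Rbpj and switch on repressors of the Hes and Hey families, and Type III Nrg1, whose intracellular domain can move to the nucleus of neurons. Notch signaling is known to keep neural progenitors and glial precursors from maturing. sErbB4, the extracellular domain of a receptor for Nrg1, was added to stimulate signaling through Nrg1 in the cells that carry it.

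Levels are given as CPM, which are counts per 1000000 counts on loci with a gene name after TMM scaling, and a fold change (FC) is with DAPT over without DAPT. In units of 1000000 counts, libraries held 46.1 to 53.4 with DAPT (median 49.8) and 36.5 to 54.4 without DAPT (median 47.7), of which 23.3 to 28.2 with DAPT and 18.7 to 30.8 without fell on named loci. Rn45s, the ribosomal RNA precursor, took 31.4 to 44.6% of the named counts with DAPT and 36 to 44.4% without. In a principal component analysis of the 10887 genes that averaged 5 CPM or more, the first component (49.5% of the variance) placed the DAPT libraries at 11.7 to 14.9 and the others at -14.8 to -10.9. sErbB4 library 1 (9.6) and Vehicle library 3 (7.8) had the highest values on the second component, which held 8.7%. Without these 2 libraries, 2891 genes were higher and 3138 lower with DAPT, against 2880 and 3138 with all 12. Transcripts of astrocytes were abundant in these neuronal cultures, with Gfap at 4492 to 5137 CPM with DAPT and 3719 to 4525 CPM without. Endothelial transcripts were near 0, with 12 markers summing to 15.3 to 17 CPM with DAPT and 13.3 to 17.7 CPM without.

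DAPT changed the level of a large share of the transcriptome, mostly by small steps. Of 15656 genes tested, 2880 (18.4%) were higher and 3138 (20.0%) lower with DAPT at an adjusted p under 0.05 (edgeR quasi-likelihood test, Benjamini-Hochberg over all genes). Changes are called small below a log2 FC of 0.32 in size, moderate between 0.32 and 0.58, where 0.58 is 1.5-fold, and large beyond. Among the higher genes, 2018 changes were small, 641 (4.09% of all genes) moderate and 221 large. Among the lower genes, 1921 were small, 644 (4.11%) moderate and 573 large. Higher and lower changes under 1.5-fold took 17.0% and 16.4% of all genes. Large changes were thus more often decreases, while changes under 1.5-fold were of similar number in both directions. Beyond a log2 FC of 0.32, the fold limit of the study, 2079 genes (13.3%) were called. The 6 libraries with DAPT did not overlap the 6 without it in 3194 genes (20.4%; 8.60% higher and 11.8% lower), among them 393 of the 641 moderate increases and 499 of the 644 moderate decreases.

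**Figure D1:**
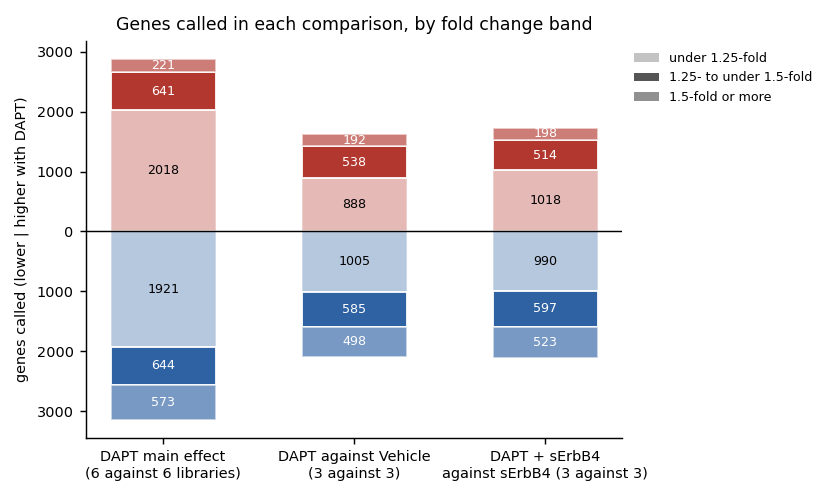
Number of genes called at an adjusted p under 0.05 (y axis, higher with DAPT upward and lower downward) in the main effect and in each 3 against 3 comparison (x axis), divided by fold change band (shades). The main effect called 2018 higher and 1921 lower genes with small changes, against 888 and 1005 for DAPT against Vehicle.

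The added libraries narrowed the error of each estimate. Over the 10887 genes, the median SE of a log2 FC was 0.0453 for the main effect, 0.0644 for DAPT against Vehicle and 0.0634 for DAPT + sErbB4 against sErbB4. The smallest fold called was 1.05 for the main effect, against 1.07 and 1.06. Moderate changes numbered 641 higher and 644 lower in the main effect, against 538 and 585 in DAPT against Vehicle, so the added calls were mostly small changes. DAPT against Vehicle called 3706 genes (23.7%; 10.3% higher and 13.3% lower) and DAPT + sErbB4 against sErbB4 called 3840 (24.5%; 11.1% higher and 13.5% lower).

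DAPT against Vehicle and DAPT + sErbB4 against sErbB4 share no library, so the genes picked in either can be read in the other. Of 538 genes with a moderate increase in DAPT against Vehicle, 529 were also positive in DAPT + sErbB4 against sErbB4, and 384 (71.4%) were called higher there, where 11.1% of all genes were. Their median log2 FC was 0.401 in the comparison that picked them and 0.342 in the other. Of 585 genes with a moderate decrease, 580 were also negative and 508 (86.8%) were called lower, against 13.5% of all genes, with medians of -0.416 and -0.394. Picking in the reverse order gave 374 of 514 higher genes (72.8%) and 501 of 597 lower genes (83.9%). None was called in the opposite direction either way. Libraries were scaled together and the spread of each gene was estimated over all 12, which both comparisons share.

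**Figure D2:**
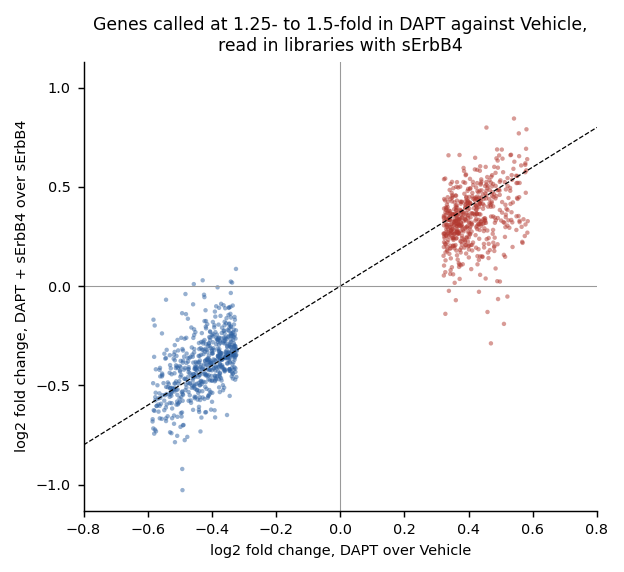
Log2 FC of DAPT over Vehicle (x axis) and of DAPT + sErbB4 over sErbB4 (y axis) for the 538 higher and 585 lower genes with a called moderate change in the comparison on the x axis (points). The dashed line marks equal values on both axes. Most points lie in the upper right (529 of the 538) and lower left (580 of the 585), and the medians on the y axis are 0.342 and -0.394.

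The interaction test asked whether the response to DAPT differed in the presence of sErbB4. By this test 1 gene (0.00639%) was called, Htd2, at 2.4 to 4.1 CPM in all conditions but sErbB4, where its 3 libraries were listed at 0, and 565 genes (3.61%) had an unadjusted p under 0.05. Of the 1285 genes with a moderate main effect, 36 (2.8%) had such a p. They were picked in a model without the interaction, where a response that differs adds to the spread. That favors a low share, so no lack of interaction can be read from it. The interaction is also estimated less closely, as with Cpe (SE 0.040, against 0.019 for its main effect). DESeq2 called 6 genes for the interaction in place of 1. Among genes averaging 5 CPM or more, the smallest interaction p were those of Eln, Cox20 and Ptpn4, none of them called (adjusted p = 0.27, 0.27 and 0.28). Eln, which encodes elastin, was at 19.8, 20.2 and 21.0 CPM in DAPT and 15.7, 16 and 16.3 CPM in DAPT + sErbB4, against 22.9, 23.9 and 25.7 CPM in Vehicle and 24.9, 26.0 and 26.1 CPM in sErbB4. Its log2 FC was -0.68 (SE 0.05) with sErbB4 and -0.25 (SE 0.05) without it. Cox20, an assembly factor of cytochrome c oxidase, was at 5.94 to 7.09 CPM in DAPT and 7.00 to 7.36 CPM in DAPT + sErbB4, against 12.8 to 17.2 CPM in Vehicle and 8.04 to 8.25 CPM in sErbB4. Here the sErbB4 libraries lay between Vehicle and the DAPT libraries, so that the log2 FC was -1.11 without sErbB4 and -0.18 with it.

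Among the moderate increases with the smallest p were neuronal genes of secretion, synapses and excitability. Cpe (GRCm38 chromosome 8, 64592542 to 64693109), the carboxypeptidase that trims neuropeptide precursors, was at 1672, 1707 and 1751 CPM (lowest, median and highest of 6 libraries) with DAPT and 1236, 1290 and 1329 CPM without. Its log2 FC was 0.41 (SE 0.02, adjusted p = 9.4e-09), a fold of 1.32, and it differed little between sErbB4 states (0.42 without and 0.39 with sErbB4). Syp (chromosome X, 7638580 to 7653256), the synaptic vesicle protein synaptophysin, was at 290, 317 and 350 CPM with DAPT and 230, 249 and 262 CPM without (log2 FC 0.36, SE 0.02, adjusted p = 4.5e-08). Its libraries formed 4 steps, with Vehicle lowest, then sErbB4, DAPT and DAPT + sErbB4. Scn2a (chromosome 2, 65620764 to 65767447), the axonal sodium channel Nav1.2, was at 29.0, 30.9 and 33.5 CPM with DAPT and 21.1, 22.8 and 25.0 CPM without (log2 FC 0.44, SE 0.03). In all of these the lowest library with DAPT lay above the highest without it. Picking genes by the smallest p of the same comparison favors such a gap.

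Others of these genes act within cells more broadly. Rab11fip4, an effector of recycling endosomes, rose by a log2 FC of 0.43 (SE 0.03), with 58.4 to 62.6 CPM with DAPT and 43.6 to 46.5 CPM without. Mxi1, which competes with Myc for its partner Max, rose by 0.45 (SE 0.03), and Spata2l by 0.53 (SE 0.03). None of them overlapped between the groups of 6, which the same way of picking favors.

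Among the moderate decreases with the smallest p were genes of mitochondria, microtubule motors and secretion. Hspa9, the Hsp70 chaperone of the mitochondrial matrix, was at 184, 189 and 196 CPM with DAPT and 254, 262 and 272 CPM without (log2 FC -0.47, SE 0.02, adjusted p = 1.6e-08). Mcur1, a regulator of mitochondrial calcium uptake, was at 26.4, 27.3 and 28.5 CPM with DAPT and 37.7, 40.7 and 42.4 CPM without (log2 FC -0.57, SE 0.03, adjusted p = 1.3e-08). The groups stood apart in both, with the 6 DAPT libraries close together. Of the kinesins, Kifc3, which moves toward microtubule minus ends, fell by 0.58 (SE 0.03) and Kif1c by 0.50 (SE 0.03) on the log2 scale. Htra1 (chromosome 7, 130936203 to 130985658), a secreted serine protease, was at 302, 314 and 332 CPM with DAPT and 425, 447 and 472 CPM without (log2 FC -0.50, SE 0.03). Calu, a calcium-binding protein of the secretory pathway, was at 132, 139 and 144 CPM with DAPT and 182, 190 and 195 CPM without (log2 FC -0.45, SE 0.02). Wnt7b (chromosome 15, 85535437 to 85581821), a Wnt ligand of forebrain neurons, was at 37.8, 38.9 and 42.2 CPM with DAPT and 54.4, 58.0 and 59.5 CPM without (log2 FC -0.54, SE 0.03), and Susd6 fell by 0.51 (SE 0.03). As with the increases, no library of either group crossed into the other, and picking by the smallest p favors this.

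**Figure D3:**
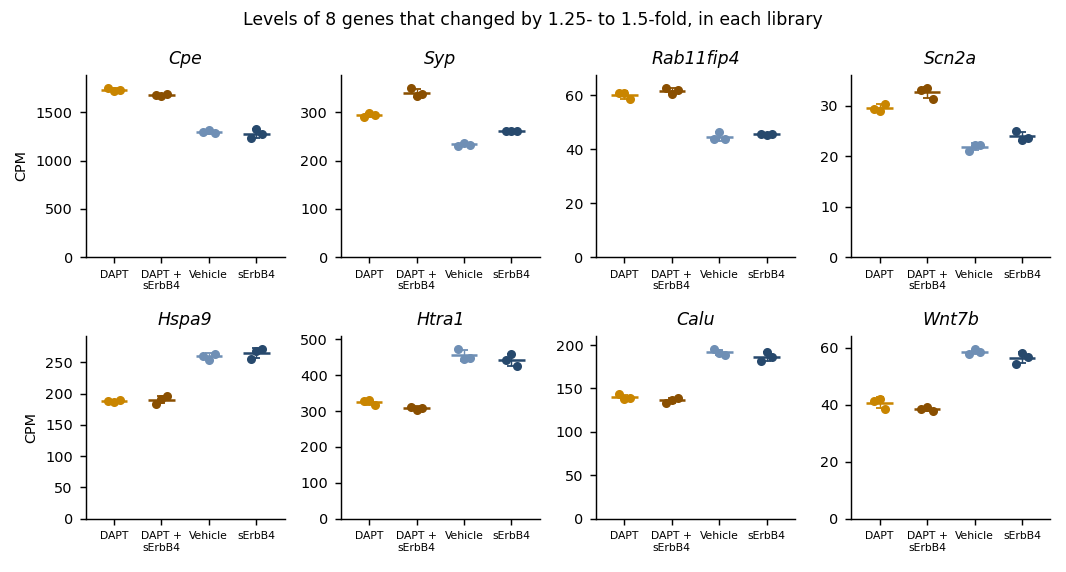
CPM (y axes, from 0) of 4 genes with moderate increases and 4 with moderate decreases, in the 3 libraries of each condition (x axis). Each point is a library, each horizontal line a mean and each bar the SD of 3 libraries. In each panel the DAPT and DAPT + sErbB4 libraries stand apart from the Vehicle and sErbB4 libraries, as with Cpe at 1672 to 1751 CPM with DAPT and 1236 to 1329 CPM without. The genes were picked by the smallest p of this comparison, which favors such a gap.

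Genes of the presynaptic terminal rose together by small amounts. Of 37 genes of synaptic vesicle release, 30 were higher and 2 lower, with a median log2 FC of 0.27, against 18.4% higher, 20.0% lower and a median of 0.01 over all genes. The lists below are read against the same shares. None of the 30 reached 1.5-fold: 20 increases were small and 10 moderate. Snap25, a plasma membrane SNARE, was at 188, 202 and 221 CPM with DAPT and 137, 158 and 185 CPM without (log2 FC 0.35, SE 0.04). Vamp2, the vesicle SNARE, was at 273, 289 and 304 CPM with DAPT and 225, 244 and 267 CPM without (log2 FC 0.21, SE 0.03). Of the active zone scaffolds, Pclo rose by 0.55 and Bsn by 0.41. Slc17a7, which loads glutamate into vesicles, rose by 0.30 (SE 0.04), and Slc32a1, which loads GABA, had a log2 FC of 0.09 and was not called. The 2 lower genes were Syt11, a synaptotagmin that does not bind calcium (log2 FC -0.37, SE 0.03), and Syt2 (-0.74), which was near 1 CPM. Unc13a, a priming factor, was not called, with 45.3, 52.2 and 55.5 CPM with DAPT and 29.9, 45.5 and 65.6 CPM without. Its log2 FC was 0.51 without sErbB4 and -0.19 with it. In 3 against 3 libraries, 26 of the 37 genes were higher with DAPT alone and 25 with DAPT + sErbB4.

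Voltage-gated ion channels, which set how neurons fire, behaved likewise. Of 48 genes, 32 were higher and 2 lower, with a median log2 FC of 0.29, and 19 of the 32 increases were small and 10 moderate. Kcnq3, a potassium channel subunit, rose to 11.5, 12.0 and 12.7 CPM with DAPT, against 5.71, 6.17 and 8.91 CPM without (log2 FC 0.87, SE 0.09). Kcnh3 (0.66) and Kcna4 (0.89) also passed 1.5-fold. The lower genes of the list were Kcnt1 (-0.32) and Kcna6 (-0.19). Kcng4, a potassium channel subunit gene that is not on the list, had a log2 FC of -2.22 (SE 0.05). Kcnd3 had 44.0 to 49.3 CPM with DAPT and 44.3 to 47.0 CPM without and was not called. In the smaller comparisons, 24 channel genes were higher with DAPT alone and 22 with DAPT + sErbB4.

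Receptors and their scaffolds included genes of both directions. Of 31 genes of the postsynaptic density and spine, 18 were higher and 3 lower (median log2 FC 0.16). Camk2a, a kinase of synaptic plasticity, was at 204, 222 and 244 CPM with DAPT and 158, 177 and 197 CPM without (log2 FC 0.34, SE 0.03), while Camk2b rose by only 0.13 (SE 0.03). Dlgap2 (0.44), Sorbs2 (0.35) and Dlg2 (0.34) were the other genes with a moderate increase. Ppp1r9b, which encodes the spine protein spinophilin, was lower, at 148, 150 and 155 CPM with DAPT and 162, 169 and 174 CPM without (log2 FC -0.16, SE 0.02). Of 29 glutamate receptor genes, 10 were higher (34.5%, against 18.4% of all genes) and 6 lower (20.7%, against 20.0%). Gria1, an AMPA receptor subunit, was at 87.9, 92.6 and 96.2 CPM with DAPT and 69.1, 73.4 and 80.9 CPM without (log2 FC 0.32, SE 0.03). The NMDA receptor subunits Grin1 (0.25, SE 0.05), Grin2a (0.44) and Grin2b (0.47, SE 0.10) also rose. Among the 6 lower genes, Grin2c (-1.41), Grm3 (-1.37, SE 0.07) and Cacng4 (-0.63, SE 0.05) passed 1.5-fold. Grm3 and Grin2c are known from astrocytes as well, and Cacng4 stands on the oligodendrocyte precursor list too.

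GABA receptor subunits and interneuron genes were higher in 16 of 29 cases and lower in 1 (median log2 FC 0.22). The neuropeptide genes Sst and Cck led them. Sst was at 185, 203 and 235 CPM with DAPT and 132, 149 and 160 CPM without (log2 FC 0.47, SE 0.04), and Cck at 69.3, 85.4 and 105 CPM with DAPT and 43.5, 55.2 and 68.3 CPM without (log2 FC 0.60, SE 0.07). The receptor genes Gabra5 (0.39) and Gabbr1 (0.26, SE 0.03) rose, and Gabrg1 fell by 0.37. Gad1 (0.08) and Gad2 (0.05), which make GABA, were not called, but without sErbB4 library 3 Gad1 was called higher (0.18).

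General markers of neurons moved with these genes. Of 15 pan-neuronal markers, 12 were higher and 1 lower (median log2 FC 0.23), and their sum was 2256 to 2544 CPM with DAPT and 1929 to 2225 CPM without, with a gap between the groups. Among them, Stmn2, a tubulin-binding protein of growing axons, was at 445, 487 and 527 CPM with DAPT and 352, 377 and 418 CPM without (log2 FC 0.35, SE 0.03). Gap43, a growth cone protein, rose by 0.24 (SE 0.03), and Thy1 had a log2 FC of 0.08 and was not called. The lower marker was Tubb3 (-0.13), at 321 to 381 CPM with DAPT and 367 to 412 CPM without. In these bulk libraries, more RNA per neuron and a larger share of neurons cannot be told apart. The part of the neuronal markers in the changes of the synaptic and channel lists was not tested.

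**Figure D4:**
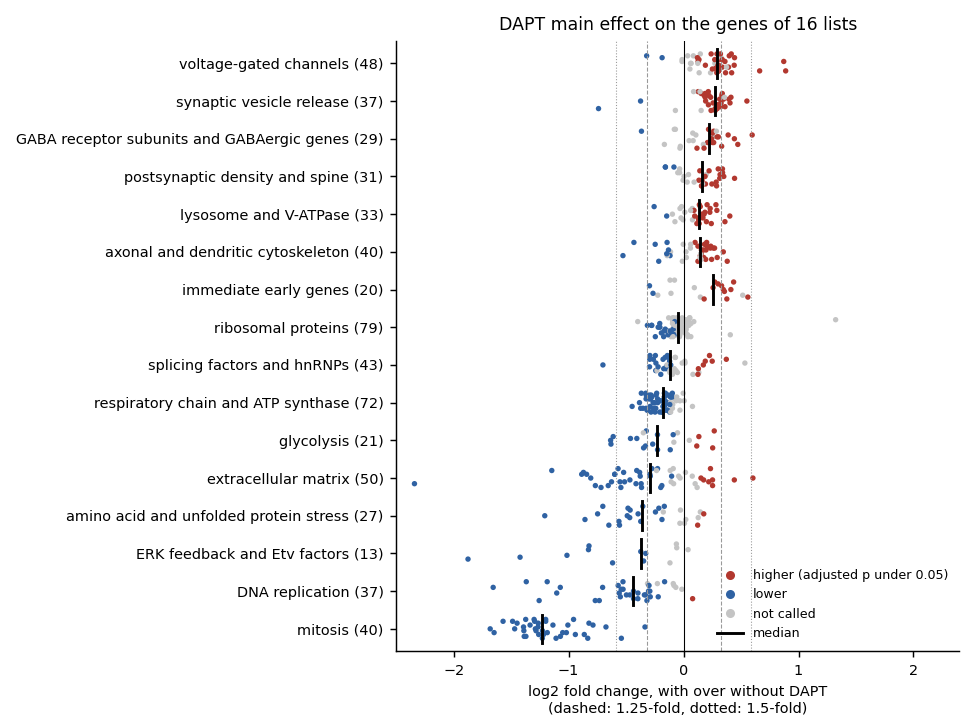
Log2 FC of the DAPT main effect (x axis) for each gene of 16 lists (rows, with the number of genes tested), with points for genes, red where higher, blue where lower and grey where not called, and black bars for medians. Channel and vesicle release genes lie mostly to the right, with medians of 0.29 and 0.27, and respiratory chain genes to the left in a narrow band, with a median of -0.18.

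Of 40 genes of the axonal and dendritic cytoskeleton, 21 were higher (52.5%, against 18.4% of all genes) and 8 lower (20%, as over all genes). The neurofilament genes Nefl (0.38, SE 0.05) and Nefm (0.27) rose, as did the microtubule-associated genes Map1b (0.29), Mapt (0.20) and Map2 (0.18). Tubulin genes made up 6 of the 8 lower ones. Tubb2a was at 1126, 1207 and 1408 CPM with DAPT and 1699, 1788 and 1885 CPM without (log2 FC -0.53, SE 0.05), and Tubb2b at 1164, 1277 and 1451 CPM with DAPT and 1622, 1704 and 2022 CPM without (log2 FC -0.43, SE 0.06). Tubb5 (-0.25), Tuba1b (-0.22) and Tuba1a (-0.15, SE 0.04) fell less, and Tubb3 fell by 0.13. These tubulin genes are close in sequence, and how reads were divided among them bears on their values. Of 44 axon guidance genes, 21 were higher (47.7%) and 8 lower (18.2%, against 20.0% of all genes), with a median log2 FC of 0.08. Epha6 (0.56), Robo1 (0.38) and Slit3 (0.35) were among those that rose. Ntn1, which encodes netrin, was at 13.1, 14.4 and 15.4 CPM with DAPT and 23.4, 24.3 and 24.9 CPM without (log2 FC -0.78, SE 0.04). Ephb2 (-0.43), Ephb3 (-0.52), Efnb1 (-0.63, SE 0.08) and Plxnb1 (-0.37, SE 0.04) also fell.

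Immediate early genes, which neurons transcribe within minutes to hours of activity, were moderately higher in part. Of 20 genes, 11 were higher, 7 of them moderately and none by more, and 2 were lower (median log2 FC 0.26). In the 3 against 3 comparisons 9 were higher with DAPT alone and 6 with DAPT + sErbB4. Of the 20 genes, 6 did not overlap between the groups of 6, against 20.4% of all genes. sErbB4 library 3 lay within the range of the DAPT libraries in the median profile of this list (0.10, against 0.06 to 0.18 with DAPT), and without it 13 genes were higher. Nr4a3, an orphan nuclear receptor, was at 34.5, 38.1 and 40.4 CPM with DAPT and 22.8, 24.7 and 28.7 CPM without (log2 FC 0.56, SE 0.06). Bdnf, which encodes a neurotrophin, was at 34.5, 40.1 and 41.8 CPM with DAPT and 29.7, 31.4 and 33.4 CPM without (log2 FC 0.33, SE 0.05). Egr3 (0.44, SE 0.06) and Arc (0.38) rose as well. The AP-1 genes did not share a direction. Jund was at 107, 112 and 122 CPM with DAPT and 91.3, 93.8 and 98.9 CPM without (log2 FC 0.26, SE 0.03). Jun was at 67.2, 69.4 and 72.8 CPM with DAPT and 81.8, 83.3 and 86.1 CPM without (log2 FC -0.27, SE 0.02). Fos was not called (0.15), with 29.7 to 34.5 CPM with DAPT and 22.9 to 41.0 CPM without, but it was called higher (0.30) without sErbB4 library 3, which held the highest value. Of 14 dentate granule cell genes, 7 were higher and none lower (median log2 FC 0.17). Rfx3, a transcription factor gene, was at 14.3, 15.4 and 15.8 CPM with DAPT and 9.45, 10.9 and 12.1 CPM without (log2 FC 0.50, SE 0.06). Neurod1 rose by 0.16 (SE 0.04), and Prox1, which specifies granule cells, was not called (0.06).

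Lysosomal genes were slightly higher. Of 33 genes of the lysosome and of the V-ATPase, the pump that acidifies it, 21 were higher and 2 lower (median log2 FC 0.13), and 19 of the 21 increases were small. Psap, the precursor of the saposins, was at 1501, 1534 and 1661 CPM with DAPT and 1297, 1359 and 1418 CPM without (log2 FC 0.20, SE 0.03). Lamp1, a membrane protein of lysosomes, was at 762, 785 and 803 CPM with DAPT and 633, 705 and 727 CPM without (log2 FC 0.17, SE 0.03). Cd63, a tetraspanin of late endosomes, was at 498, 512 and 543 CPM with DAPT and 368, 387 and 432 CPM without (log2 FC 0.40, SE 0.04). The groups did not overlap in any of these. V-ATPase subunits ranged up to 0.36 for Atp6v1g2, and the cholesterol transporter gene Npc1 (-0.26) and Grn (-0.15) were the lower ones.

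Genes of oxidative phosphorylation fell by small amounts across all its complexes. Of 72 nuclear genes of the respiratory chain and ATP synthase, 58 were lower and none higher (median log2 FC -0.18), and 49 of the 58 decreases were small. Lower genes numbered 24 of 34 for complex I, 4 of 4 for complex II, 10 of 10 for complex III with cytochrome c, 8 of 10 for complex IV and 12 of 14 for ATP synthase. Atp5b (chromosome 10, 128083307 to 128090388), the catalytic subunit of ATP synthase, was at 996, 1026 and 1064 CPM with DAPT and 1166, 1279 and 1314 CPM without (log2 FC -0.29, SE 0.03). Cox8a, a subunit of complex IV, was at 797, 848 and 920 CPM with DAPT and 980, 1028 and 1100 CPM without (log2 FC -0.29, SE 0.04), and Cyc1, cytochrome c1 of complex III, was at 142, 147 and 151 CPM with DAPT and 190, 201 and 213 CPM without (log2 FC -0.45, SE 0.03). These genes did not overlap between the groups, as was so for 34 of the 72 and for 20.4% of all genes. By contrast, Cox4i1 of complex IV was at 931, 960 and 1025 CPM with DAPT and 921, 968 and 1001 CPM without, and was not called. In 3 against 3 libraries, 50 of the 72 genes were lower with DAPT alone and 35 with DAPT + sErbB4.

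The fold changes went with transcript length, which bears on short transcripts such as these. Across the 10732 genes that average 5 CPM or more and have a known length, which are not independent replicates, the log2 FC had a Spearman correlation of 0.126 with length. Its median was -0.03 in the shortest of 5 equal groups of genes and 0.04 in the longest. The median length was 1093.5 bases over the respiratory chain genes, 1059 over ribosomal protein genes and 7072 over channel genes. With the trend over length removed from each library, an alternative added after seeing the data, 53 of the 72 respiratory chain genes were lower (median -0.14) and 31 of the 48 channel genes higher. With limma on log2(CPM + 2) and cyclic loess normalization, 41 respiratory chain genes were lower and 1 higher.

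Glycolytic genes fell as well, 8 of 13 by more than a small change. Of 21 genes of glycolysis and of glucose and lactate transport, 13 were lower (61.9%, against 20.0% of all genes) and 4 higher (19%, close to the 18.4% over all genes). The median log2 FC was -0.23. Eno1, which encodes the widely expressed enolase, was at 519, 533 and 578 CPM with DAPT and 784, 836 and 905 CPM without (log2 FC -0.63, SE 0.04). Its neuronal counterpart Eno2 was among the higher genes (0.27). Pkm (chromosome 9, 59656576 to 59679372), pyruvate kinase, was at 554, 585 and 613 CPM with DAPT and 774, 788 and 869 CPM without (log2 FC -0.46, SE 0.03), and the astrocytic aldolase gene Aldoc was at 127, 135 and 150 CPM with DAPT and 188, 208 and 231 CPM without (log2 FC -0.61, SE 0.04). Aldoa fell by only 0.12 (SE 0.03). Slc2a3 (0.25), the glucose transporter of neurons, was another of the higher genes, and Hk1 was not called (-0.05).

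Regulatory sequence was compared at the start sites of these genes, from 250 bases before to 50 after each start in RefSeq (GRCm38.p6), which held 15140 windows for 11891 of the 15656 genes. Nrf1, nuclear respiratory factor 1, is known to bind promoters of respiratory chain genes. Its motif, sought on both strands as GCGC and TGCGC parted by 1 base of any kind, stood in 17 of 65 windows of the respiratory chain list (26.2%) and in 1351 of all 15140 windows (8.92%). This list too was written from known functions, so its share reflects the choice of genes and not DAPT. Among windows of genes with moderate changes the motif stood in 46 of 650 of higher genes (7.08%) and 41 of 701 of lower genes (5.85%). With small changes it stood in 183 of 2124 of higher genes (8.62%) and 232 of 2014 of lower genes (11.5%). With large changes it stood in 4 of 192 of higher genes (2.08%) and 19 of 529 of lower genes (3.59%). It also stood in 22.2% of windows of the proteasome list, 22.2% of the chaperone list and 20.7% of the splicing list. A pair of windows is shown because their genes fell and they hold the motif more than once, a choice made after the matches were seen. Capitals mark the matches. Sdha (chr13:74350191-74350490, minus strand), a subunit of complex II, was at 181, 189 and 190 CPM with DAPT and 213, 224 and 237 CPM without (log2 FC -0.26, SE 0.03). Uqcrc1 (chr9:108936398-108936697, plus strand), a subunit of complex III, was at 238, 250 and 251 CPM with DAPT and 292, 314 and 320 CPM without (log2 FC -0.33, SE 0.03).
Sdha: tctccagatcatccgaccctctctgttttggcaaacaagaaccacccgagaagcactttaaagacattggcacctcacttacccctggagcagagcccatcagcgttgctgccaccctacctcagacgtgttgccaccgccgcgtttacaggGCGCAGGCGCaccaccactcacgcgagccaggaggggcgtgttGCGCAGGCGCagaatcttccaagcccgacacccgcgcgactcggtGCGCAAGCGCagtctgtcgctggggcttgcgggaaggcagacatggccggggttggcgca
Uqcrc1: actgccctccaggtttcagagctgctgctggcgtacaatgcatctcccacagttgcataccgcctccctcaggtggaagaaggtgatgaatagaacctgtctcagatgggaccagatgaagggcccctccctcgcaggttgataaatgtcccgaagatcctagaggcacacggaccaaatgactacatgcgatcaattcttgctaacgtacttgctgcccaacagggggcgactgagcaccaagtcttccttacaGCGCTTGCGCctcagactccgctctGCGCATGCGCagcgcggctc

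Amino acid and stress response genes fell in most cases, often by moderate amounts. The list gathers transcripts that cells raise when amino acids run short or proteins misfold, only in part through the factor Atf4. Of 27 genes, 18 were lower and 2 higher (median log2 FC -0.36), and of the 18 decreases, 9 were moderate and 5 large. In the smaller comparisons, 13 were lower with DAPT alone and 16 with DAPT + sErbB4. Psat1 (chromosome 19, 15905123 to 15925059) and Phgdh make serine. Psat1 was at 178, 187 and 192 CPM with DAPT and 246, 264 and 270 CPM without (log2 FC -0.49, SE 0.03), and Phgdh at 158, 161 and 173 CPM with DAPT and 210, 226 and 246 CPM without (log2 FC -0.48, SE 0.04). Atf4 itself was at 120, 127 and 134 CPM with DAPT and 153, 162 and 170 CPM without (log2 FC -0.36, SE 0.03), and the related Atf5 was at 218, 225 and 240 CPM with DAPT and 277, 295 and 333 CPM without (log2 FC -0.40, SE 0.04). Slc7a5 and Slc3a2, the chains of an amino acid transporter, fell by 0.86 (SE 0.06) and 0.65 (SE 0.04) on the log2 scale, and Cth, an enzyme of cysteine synthesis, by 1.21 (SE 0.06). Of genes known from the unfolded protein response, Xbp1 (0.18) and Dnajc3 (0.12) were the 2 higher genes and Herpud1 (0.15) and Dnajb9 (0.13) were not called, while Hspa5, which stands on the chaperone list, fell by 0.10 (SE 0.03).

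The element that Atf4 binds with C/EBP factors, searched as TGATGNAA on both strands, stood in 7 of 25 promoter windows of this list (28.0%) and in 337 of all 15140 windows (2.23%). The list was written from known functions, response to Atf4 among them, so its share reflects the choice of genes and not DAPT. Among genes with moderate changes, the element stood in 19 of 650 windows of higher genes (2.92%) and 23 of 701 of lower genes (3.28%). With large changes it stood in 7 of 192 windows of higher genes (3.65%) and 12 of 529 of lower genes (2.27%). The windows of 3 genes that fell are shown with the match in capitals, again chosen after the matches were seen. Chac1 (chr2:119350992-119351291, plus strand), which degrades glutathione, was at 23.4, 27.3 and 28.4 CPM with DAPT and 29.9, 34.7 and 38.3 CPM without (log2 FC -0.37, SE 0.06). Asns (chr6:7693160-7693459, minus strand), asparagine synthetase, was at 72.8, 81.2 and 84.7 CPM with DAPT and 85.9, 88.6 and 118 CPM without (log2 FC -0.24, SE 0.06). Nupr1 (chr7:126625421-126625720, minus strand), a stress-induced chromatin protein, was at 7.89, 10.7 and 11.7 CPM with DAPT and 11.1, 14.8 and 19.2 CPM without, with some overlap (log2 FC -0.56, SE 0.14).
Chac1: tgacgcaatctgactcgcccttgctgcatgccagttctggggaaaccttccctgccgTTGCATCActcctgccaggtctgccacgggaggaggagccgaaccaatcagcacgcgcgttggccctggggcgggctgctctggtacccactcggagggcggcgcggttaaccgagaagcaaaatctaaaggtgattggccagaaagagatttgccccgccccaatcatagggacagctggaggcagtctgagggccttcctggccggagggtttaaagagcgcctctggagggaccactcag
Asns: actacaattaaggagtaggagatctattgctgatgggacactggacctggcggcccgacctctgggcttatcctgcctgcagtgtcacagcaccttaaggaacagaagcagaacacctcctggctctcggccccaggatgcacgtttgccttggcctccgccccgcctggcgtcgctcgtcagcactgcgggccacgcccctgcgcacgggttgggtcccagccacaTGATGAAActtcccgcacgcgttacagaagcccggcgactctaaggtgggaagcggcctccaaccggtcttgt
Nupr1: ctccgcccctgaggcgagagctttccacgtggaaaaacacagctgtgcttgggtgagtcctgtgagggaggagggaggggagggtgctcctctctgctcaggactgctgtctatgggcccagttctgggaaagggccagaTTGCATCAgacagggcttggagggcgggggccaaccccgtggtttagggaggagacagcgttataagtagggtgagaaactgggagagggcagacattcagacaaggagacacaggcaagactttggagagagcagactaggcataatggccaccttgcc

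**Figure D5:**
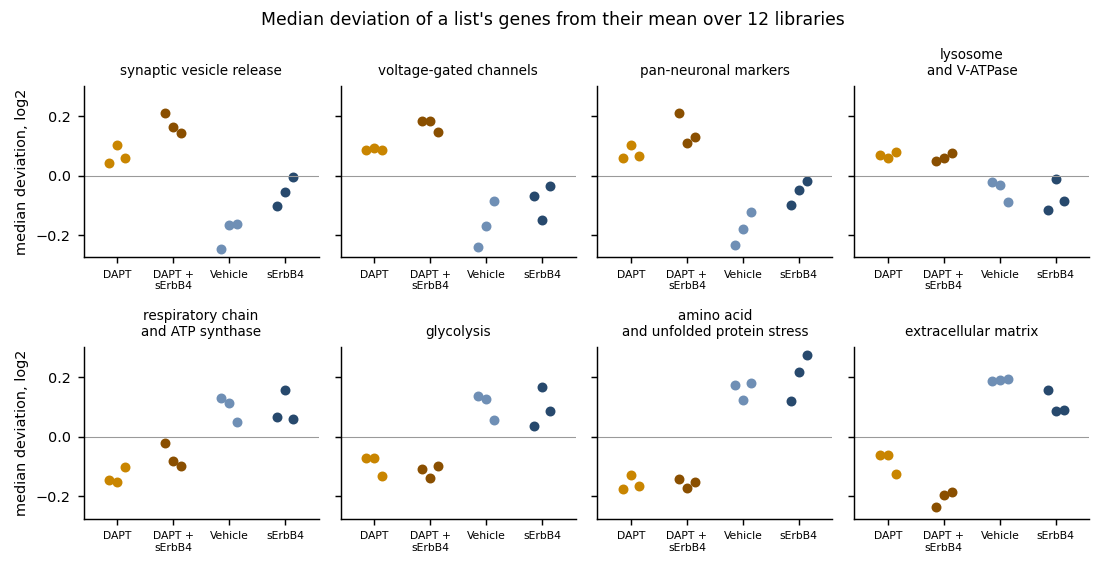
Median over a list's genes of the deviation of log2 CPM from the gene's mean over 12 libraries (y axes), for 8 lists, in the 3 libraries of each condition (x axis, points). The stress response list lies between -0.18 and -0.13 in the DAPT libraries and between 0.12 and 0.28 in the others, and the lysosome list between 0.05 and 0.08 and between -0.12 and -0.01.

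Of 43 splicing factors and hnRNPs, 19 were lower (44.2%, against 20.0% of all genes) and 7 higher (16.3%, close to the 18.4% over all genes). The median log2 FC was -0.12, and 18 of the 19 decreases were small. Hnrnpa2b1 was at 213, 225 and 233 CPM with DAPT and 251, 266 and 271 CPM without (log2 FC -0.24, SE 0.03). Ptbp1, the splicing repressor that progenitors and glia use, was at 45.0, 47.2 and 51.1 CPM with DAPT and 53.3, 59.1 and 60.6 CPM without (log2 FC -0.30, SE 0.03). The 7 higher genes were Nova2 (0.37, SE 0.06), Rbfox1 (0.25), Rbfox3 (0.23), Celf4 (0.19), Mbnl2 (0.17), Rbfox2 (0.13) and Ptbp2 (0.12), of which Nova2, Rbfox1, Rbfox3, Celf4 and Ptbp2 are known from neurons. Hnrnpab fell by 0.70 (SE 0.20), with DAPT + sErbB4 library 3 at 142 CPM and the other DAPT libraries at 89.9 to 95.1 CPM, against 98.9 to 203 CPM without DAPT, and without sErbB4 library 1 and Vehicle library 3 it was not called (-0.61). Ribosomal protein genes were lower in 19 of 79 cases (24.1%, close to the 20.0% over all genes) and higher in none, all by small changes (median -0.05), among them Rps15, at 904, 931 and 986 CPM with DAPT and 1064, 1082 and 1116 CPM without (log2 FC -0.21, SE 0.02). With limma on log2(CPM + 2) and cyclic loess, which change the test and the scaling together, 9 were lower and 10 higher. Many ribosomal protein genes have near-identical pseudogenes. Of 31 proteasome genes, 6 were lower (19.4%, close to the same 20.0%) and none higher, as with Psmd2 (-0.13, SE 0.03).

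Of 32 chaperone genes, 8 were lower (25%) and 6 higher (18.8%), close to the 20.0% and 18.4% over all genes (median log2 FC -0.02). The mitochondrial chaperone genes Hspd1 (-0.24) and Hspe1 (-0.16) fell beside Hspa9, and the Hsp70 genes Hspa2 (0.37), Hspa1a (0.26) and Hspa1b (0.17) rose, where the last 2 are near-identical copies whose reads are hard to divide. Of 30 genes of cholesterol and fatty acid synthesis and transport, 12 were lower and 3 higher (median -0.07), and 11 of the 12 decreases were small. The exception was Srebf1, a master regulator of fatty acid synthesis genes, at 27.5, 28.5 and 31.4 CPM with DAPT and 65.0, 66.5 and 69.7 CPM without (log2 FC -1.20, SE 0.03). Srebf2, which drives the cholesterol genes, fell by 0.19 (SE 0.03), Scd2, a fatty acid desaturase, fell by 0.28 (SE 0.08), and Apoe, the main lipid carrier of astrocytes, was not called at 5588 to 6479 CPM with DAPT and 5490 to 5926 CPM without.

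Components of the Notch pathway were lower in 15 of 28 cases and higher in 3 (median log2 FC -0.20). Of the targets, Heyl (-2.65, near 0 CPM with DAPT), Hes1 and Hes5 (-1.90) had the largest folds of the list, with Hes1 at 1.35, 1.73 and 1.97 CPM with DAPT and 5.47, 6.39 and 7.4 CPM without (log2 FC -1.92, SE 0.10). Hey1, another target, fell only by a small fold, to 70.5, 73.0 and 80.0 CPM with DAPT, against 87.4, 92.6 and 96.9 CPM without (log2 FC -0.31, SE 0.04). Nrarp, a feedback inhibitor of Notch, was at 12.2 to 14.8 CPM with DAPT and 13.3 to 16.7 CPM without (log2 FC -0.20, SE 0.06), a call lost when any of 5 single libraries was left out. Among the moderate decreases were the receptor gene Notch1 (-0.45, SE 0.07), the ligand genes Dll1 (-0.40) and Dll3 (-0.44), and Dtx4 (-0.37, SE 0.04), whose product binds Notch. The higher genes were Notch2, at 47.0, 49.2 and 52.7 CPM with DAPT and 29.0, 37.6 and 44.6 CPM without (log2 FC 0.42, SE 0.08), Numbl (0.39, SE 0.09), which encodes an inhibitor of Notch, and the coactivator gene Maml3 (0.31). Notch1 and Notch2 thus changed in opposite directions.

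Transcripts of γ-secretase itself changed little. Aph1a fell to 45.6, 46.1 and 49.1 CPM with DAPT, against 49.7, 55.3 and 56.8 CPM without (log2 FC -0.20, SE 0.04), and Ncstn fell by 0.13 (SE 0.04). Psen2 rose to 27.8, 28.5 and 29.4 CPM with DAPT, against 24.8, 25.2 and 27.4 CPM without (log2 FC 0.15, SE 0.03), as did the close copies Aph1b (0.15, SE 0.04) and Aph1c (0.27, SE 0.08), whose separate values are uncertain. Psenen (0.10) was not called. Nrg1 rose to 11.9, 13.6 and 15.3 CPM with DAPT, against 7.48, 7.84 and 9.10 CPM without (log2 FC 0.72, SE 0.06), and its receptor gene Erbb4 had 6.39, 7.13 and 7.49 CPM with DAPT and 4.66, 5.98 and 7.32 CPM without (log2 FC 0.26, SE 0.09, adjusted p = 0.039). The call of Erbb4 was lost when any of 7 single libraries was left out.

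Feedback genes of ERK signaling and the Etv factors it induces were lower in 9 of 13 cases and higher in none (median log2 FC -0.37). The larger changes were those of Etv4 (-1.88), an ETS factor induced by ERK, and Dusp6 (-1.42), a phosphatase that acts on ERK. The moderate ones were Spred1, at 41.9, 43.3 and 47.1 CPM with DAPT and 51.0, 55.4 and 59.4 CPM without (log2 FC -0.33, SE 0.04), Spred2 (-0.35, SE 0.04) and Etv1 (-0.37, SE 0.04). Dusp4 was not called, and sErbB4 library 3 stood at 40.0 CPM where the other 5 libraries without DAPT had 26.5 to 29.8 CPM.

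Cell cycle genes fell, mitosis genes mostly by large and replication genes often by moderate amounts. All 40 mitosis genes were lower, 38 of them by 1.5-fold or more (median log2 FC -1.23). Ube2c, which directs cyclins to destruction, was at 4.61, 5.97 and 6.69 CPM with DAPT and 15.0, 17.3 and 20.7 CPM without (log2 FC -1.57, SE 0.07). Of 37 DNA replication genes, 30 were lower and 1 higher (median -0.44), with 14 of the 30 decreases moderate. Pcna, the clamp of the replicative polymerases, was at 57.5, 59.9 and 63.0 CPM with DAPT and 67.5, 74.5 and 79.3 CPM without (log2 FC -0.29, SE 0.04). Rpa1, which binds single-stranded DNA, was the higher gene (0.08, SE 0.03), and its call was lost in 14 of the alternatives.

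Of 50 extracellular matrix genes, 31 were lower (62%, against 20.0% of all genes) and 8 higher (16%, close to the 18.4% over all genes). The median log2 FC was -0.29, and 12 of the 31 decreases were moderate. The brain proteoglycan genes Bcan, at 482, 491 and 549 CPM with DAPT and 683, 724 and 756 CPM without (log2 FC -0.51, SE 0.03), and Ncan, at 449, 467 and 506 CPM with DAPT and 671, 677 and 762 CPM without (log2 FC -0.57, SE 0.04), were among these 12. Sparcl1, secreted by astrocytes, rose by 0.25 (SE 0.03). Markers of pericytes, smooth muscle and fibroblasts were lower in 10 of 15 cases and higher in 2, and the sum over the 19 listed was 272 to 317 CPM with DAPT and 392 to 425 CPM without. Their part in the matrix result was not tested.

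Astrocyte markers did not move together, with 6 of 18 higher and 8 lower and a sum of 9554 to 10705 CPM with DAPT and 9598 to 11106 CPM without. Gfap rose by 0.26 (SE 0.03) and the gap junction gene Gja1 was at 420, 442 and 467 CPM with DAPT and 267, 288 and 317 CPM without (log2 FC 0.61, SE 0.04). Glul, glutamine synthetase, fell by 0.26 (SE 0.04). Of 19 radial glia and neural stem markers, 8 were lower, Fabp7 with the largest fold (-1.90, SE 0.04), and 6 higher. Of 14 oligodendrocyte precursor markers, 7 were lower and 1, Bcas1, higher (0.32, SE 0.09), with a median log2 FC of -0.15. Their sum was 815 to 919 CPM with DAPT and 1340 to 1460 CPM without, and most of this difference was that of Olig1, at 263 to 292 CPM with DAPT and 635 to 725 CPM without (log2 FC -1.34). Pdgfra fell by 0.51 (SE 0.04), while of 12 myelin markers tested 2 were higher and 1 lower. Of 18 microglia markers, 2 were higher and 2 lower, and no endothelial marker was called of the 8 tested. The part of these cell types in the results above was not tested.

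The largest folds among genes averaging 5 CPM or more lay far outside the moderate band. Vtn, which encodes vitronectin, fell to 2.42, 2.98 and 3.58 CPM with DAPT, against 13.8, 15.1 and 16.2 CPM without (log2 FC -2.34, SE 0.09), and Tgm1 (-2.27, SE 0.06) and Kcng4 (-2.22, SE 0.05) were next. Ass1, an enzyme of arginine synthesis, varied widely, with 9.47, 29.2 and 35.7 CPM with DAPT and 0.0409, 4.39 and 9.55 CPM without (log2 FC 2.64, SE 0.45). The highest library without DAPT lay just above the lowest with it.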

How the data were processed

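RNA from WT P4 hippocampal neuronal cultures (4 conditions, 3 libraries each) was sequenced after poly-A selection. The authors used Trimmomatic for trimming, HISAT2 for alignment to mm10 (GRCm38) and StringTie for assembly and quantification. FastQC, MultiQC and limma are also named in the submitters' processing notes, and versions are not given in the sources used here. The deposited values are estimated counts per locus, which were rounded to whole numbers. Of 21312 loci, the 1976 without a gene name were left out, and 15656 of 19336 named loci passed filterByExpr over the 4 conditions.

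The main effect was fitted in edgeR 4.0.16 (R 4.3.3) by quasi-likelihood with TMM scaling and terms for sErbB4 and DAPT (9 residual degrees of freedom), and single comparisons and the interaction with 4 condition means (8). A gene is called at a Benjamini-Hochberg adjusted p under 0.05 over all genes. Alternatives used DESeq2 1.42.0, limma 3.58.1, other scalings and filters, a replicate block, and leaving out each library. The fits were tested on simulated data with known changes. These covered a far smaller part of the genes than was called here and held no sErbB4 effect. Depth limits precision as the SE shows, and p-values measure the spread between libraries, which the labels do not tie to separate animals. Replicate numbers did not pair libraries in all conditions and were not used as a block in the main result.

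The genes and lists were chosen with earlier results of these data known. The rule for named genes took, at a mean of at least 5 CPM, the 8 higher and 8 lower moderate genes with the smallest p, the 3 higher and 3 lower with the largest fold, from each list the called members under and over 1.5-fold and the uncalled member with the highest mean, the 3 smallest interaction p, and, at any level, Hes1, Hes5, Hey1, Nrarp, Nrg1, Erbb4 and the γ-secretase genes. Not all of these are printed, some genes are not reported here, and other genes named in the text were chosen after their values were seen.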

Additional observations from a re-analysis of the deposited data

Results flagged for a closer look

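Among the genes named above, each set of 6 libraries was searched for a library whose gap to its nearest neighbor, relative to the range of the 6, exceeded Dixon's 95% critical value. Of 366 sets, 27 held one, where chance gives about 1 in 20 for independent sets of like libraries. These sets pool libraries with and without sErbB4, and all genes share the same libraries. No excess over chance can therefore be read from the count.

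Library 3 of sErbB4 stood apart in 7 of these, all among the libraries without DAPT. It was high for Dusp4 (40.0 CPM, the others 26.5 to 29.8), Gad1 (80.7 CPM, 46.5 to 59.3), Kcnq3 (8.91 CPM, 5.71 to 6.80), Arc (6.01 CPM, 4.21 to 4.82), Slc7a5 (365 CPM, 269 to 304) and Slc3a2 (360 CPM, 315 to 331). It was low for Hnrnpa2b1 (251 CPM, 265 to 271). Other libraries without DAPT stood apart in single genes. Vehicle library 1 was at 5926 CPM for Apoe (the others 5490 to 5600), 65.1 CPM for Grin1 (74.6 to 78.0) and 1400 CPM for Sparcl1 (1261 to 1313). Vehicle library 2 was at 109 CPM for Hspe1 (125 to 130). sErbB4 library 1 was at 13.3 CPM for Nrarp (15.5 to 16.7), 53.3 CPM for Ptbp1 (58.2 to 60.6), 635 CPM for Olig1 (699 to 725) and 105 CPM for Srebf2 (115 to 120). sErbB4 library 2 was at 869 CPM for Pkm (774 to 804).

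Among the libraries with DAPT, DAPT + sErbB4 library 1 was at 51.3 CPM for Dnajc3 (55.6 to 57.1), 21.3 CPM for Dusp6 (22.4 to 22.7), 36.1 CPM for Sorbs2 (39.0 to 40.5) and 250 CPM for Thy1 (229 to 237). DAPT + sErbB4 library 3 was at 142 CPM for Hnrnpab (89.9 to 95.1). DAPT library 2 was at 5.94 CPM for Cox20 (7.00 to 7.36), 7.37 CPM for Etv1 (8.13 to 8.34), 4.42 CPM for Grin2c (3.70 to 3.91) and 64.3 CPM for Ncstn (57.8 to 60.2). DAPT library 1 was at 148 CPM for Map2 (152 to 155) and DAPT library 3 at 19.0 CPM for Spata2l (20.7 to 21.7).

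The effect of DAPT on Htd2 differed between the sErbB4 states (interaction adjusted p = 0.0016, edgeR). Htd2 was at 2.44, 3.11 and 4.12 CPM in DAPT + sErbB4 and listed at 0 in all 3 sErbB4 libraries, and it was at 2.65, 3.27 and 3.40 CPM in DAPT and 2.70, 3.13 and 3.78 CPM in Vehicle. The fitted log2 difference of 9.41 rests on the 3 values of 0 and on the prior count, and is not a bound.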

How the results depend on the processing

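No gene called for the main effect was called in the opposite direction under any alternative, and 87.9 to 99.5% of the calls were kept. The number of moderate increases was 411 with limma on log2(CPM + 2) and cyclic loess, against 641, and the cause was not tested. Interaction calls numbered 6 with DESeq2 and 1 to 3 with 1 library left out, against 1. With single libraries left out, higher genes numbered 2549 to 2934, lower genes 2801 to 3187, moderate increases 594 to 681 and moderate decreases 601 to 668. Same-numbered libraries did not all deviate together (18 pairs, correlations -0.282 to 0.356, 8 over 0.1, 4 of 12 libraries closest to their own number). The correlations were 0.122 to 0.295 between Vehicle and DAPT and -0.282 to 0.092 between sErbB4 and DAPT + sErbB4. With a replicate block 2817 genes were higher and 3078 lower.

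Of 183 genes followed by name, 14 lost their call under some alternative, and 6 of them when a single library was left out: Rpa1 (9 of the 12 libraries), Erbb4 and Ptpn4 (7 each), Hspa1b (6), Nrarp (5) and Aph1c (3). The other 8 lost it only under another method, scaling or set of libraries (Aldoa, Heyl, Hnrnpab, Hspa5, Hspe1, Scd2, Tuba1a and Tubb3). Leaving out a single library gave a call to 7 genes that had none: Dnajb9 (4 libraries), Apoe (3), and Fos, Gad1, Herpud1, Psenen and Thy1 (1 each). Values close to 0 changed sign. Cox4i1 was at 0.01 with upper quartile scaling, 0.00 without Rn45s or with unnamed loci kept, 0.08 with cyclic loess, 0.02 with the length trend removed and -0.02 to 0.01 with a library left out. Gad2 was at -0.01 with a library left out. Upper quartile scaling made 53.0% of the calls higher and removing the length trend 53.3%, against 47.9%, and shifted the median of all genes by 0.029 at most.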
